A study of Drosophila melanogaster with 2 samples.

Results

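The genes that build the fly's cuticle were read against a map of Sox102F-GFP binding in white prepupae of Drosophila melanogaster. The members were taken by name: protein-coding genes of the dm6 annotation whose symbol starts with Cpr, Twdl, Lcp, Pcp, Acp65A, Ccp84A or Edg. There were 123 of them among 13945 protein-coding genes on the 6 arms used. The gene Cpr itself encodes cytochrome P450 reductase and is no cuticle protein, although the prefix takes it, so it is described on its own and the counts below are over the other 122 unless stated. By family these were 70 CPR genes named by their map position, 25 Tweedle genes, 16 larval and adult cuticle protein genes (Lcp and Acp65A), 7 Ccp84A genes and 4 genes named Pcp or Edg.

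The study holds 1 group. Whole white prepupae of both sexes, pooled, came from 1 transgenic line that stably carries Sox102F with GFP at its C terminus, and both samples share that transgene. The labels describe immunoprecipitation against GFP, although 1 label field gives Sox102F as the antibody, and they name the samples biological replicates 1 and 4. The sources used here do not say which promoter drives the fusion or which cells make it, and in whole animals the tissues cannot be told apart. Each replicate has a list of 30000 entries, the pooled list has another 30000, and the list thresholded for reproducibility between replicates (the optimal list) holds 7055, the pooled entries with a signal of at least 76.7. The signal is the authors' own value for each peak and is used here only to rank and describe peaks within a list.

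The insect cuticle is a layered matrix of chitin and protein that the epidermis secretes at its apical face and renews at each molt. Most CPR proteins carry the Rebers and Riddiford consensus, a chitin-binding stretch that most Lcp, Acp65A and Ccp84A proteins carry too, while Tweedle proteins form a family of their own that shapes the body in the fly. In the white prepupa the last larval cuticle is being turned into the puparium, and pupal cuticle is made later, under ecdysone and the nuclear receptors that follow it. Sox102F is a SOX protein, which binds DNA through an HMG domain.

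Few of these genes had Sox102F-GFP at their start. An optimal summit lay within 1 kb of a start at 5 of 122 members, or 4.1%, where 20.3% of all protein-coding genes had one. The 5 were Cpr72Eb, Cpr62Ba, Cpr47Ec, Cpr73D and Cpr47Ed, all named CPR genes. The other 52 members, the Tweedle, Lcp, Acp65A, Ccp84A, Pcp and Edg genes, had none in the optimal list, in the 7055 strongest entries of replicate 1 or in the 7055 strongest of replicate 4. With 1 group and no read counts there was no test of this difference, and the shares stand side by side as a description.

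The sequences under 3 of these summits, and under 2 strong ones just beyond the window, are shown first, since they are the places beside cuticle genes where binding was listed. Each is the plus strand of dm6 from 50 bases before to 50 bases after an optimal summit, read from the RefSeq release 6 genome, and capitals mark a SOX word (AACAAT or ACAAAG, on either strand). The first lies 527 bp before the start of Cpr72Eb, at chr3L:16364322-16364422. The second lies 1235 bp before the start of its neighbour Cpr72Ea, at chr3L:16361318-16361418. The third lies in an intron of Cpr62Ba, at chr3L:1829647-1829747. The fourth lies in an intron that Cpr73D and Ogdh share, at chr3L:16956967-16957067. The fifth lies 2189 bp before Cpr12A, at chrX:13541404-13541504.
Cpr72Eb: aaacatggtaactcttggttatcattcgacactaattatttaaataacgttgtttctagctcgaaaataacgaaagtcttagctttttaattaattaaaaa
Cpr72Ea: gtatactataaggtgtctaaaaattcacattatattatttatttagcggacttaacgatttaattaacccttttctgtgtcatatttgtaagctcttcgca
Cpr62Ba: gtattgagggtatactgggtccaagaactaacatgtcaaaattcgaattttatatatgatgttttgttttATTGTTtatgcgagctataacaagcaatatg
Cpr73D: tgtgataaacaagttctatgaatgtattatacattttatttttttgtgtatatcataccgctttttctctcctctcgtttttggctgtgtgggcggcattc
Cpr12A: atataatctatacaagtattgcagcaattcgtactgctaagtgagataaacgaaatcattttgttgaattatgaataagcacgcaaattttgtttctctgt

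Of these, Cpr62Ba held a SOX word, in its reverse form ATTGTT, and the other four held none. Over all 5 optimal summits at members, 1 was listed with a SOX word within 50 bases, and of 27 distinct weaker summits at members 4 were. No sequence is given here for the member summits on 2R, Cpr47Ec and Cpr47Ed among them. Those are counted as having no SOX word, which could not be checked, so the counts at members may be too low. Either SOX word stood at 19.7% of all 7055 optimal summits and at 19.4% of all 30000 pooled entries. The pooled entries include the optimal ones, and the share at weaker entries alone was not computed. A match is a run of letters and does not show a site.

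Cpr72Eb had the strongest summit of any member. It lies on 3L (FBgn0036618, 16364899 to 16365707, plus strand), and its summit had a signal of 316.9 in the pooled list, rank 1040 of 30000. In replicate 1 the signal was 144.3 at rank 1272, and in replicate 4 it was 174.3 at rank 867. Both replicates thus placed it among their strongest entries, with summits at most 43 bp from the pooled one. Cpr72Eb is the middle gene of 3 in a cluster of 4.7 kb.

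A second strong summit stands upstream of the same cluster, between its first gene and the outside. It had a pooled signal of 177.8, 79.5 in replicate 1 and 97.7 in replicate 4. Its nearest coding start is that of Cpr72Ea (FBgn0036617), 1235 bp away, so that gene falls just outside the 1 kb window. Cpr72Ea therefore lies between 2 optimal summits, 1 on each side, although it has no entry within 1 kb of its own start. Cpr72Ec, on the opposite strand, had no entry within 1 kb either, and its start lies 2968 bp from the Cpr72Eb summit.

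Cpr62Ba (FBgn0035279, 3L, 1824129 to 1831783, minus strand) is long for a cuticle gene, with a body of 7655 bp and 2 annotated starts. Its summit had a pooled signal of 194.2 at rank 2158, with 89.2 in replicate 1 and 102.1 in replicate 4. It lies in an intron, 755 bp before the nearer start. Cpr62Ba and Cpr72Eb were the 2 members with a summit within 1 kb of a start among the 3527 strongest of the optimal list. Of all protein-coding genes 13.0% had a summit from that shorter list. The other 2 genes of the Cpr62Ba cluster, which spans 18.0 kb, had no entry within 1 kb.

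Cpr73D (FBgn0036680, 3L, 16939100 to 16957689, minus strand) spans 18590 bp and had 2 optimal summits in its body. The first lies 672 bp inside the gene, with a pooled signal of 100.9, 27.7 in replicate 1 and 60.1 in replicate 4. Replicate 1 had a stronger entry, of signal 43.2, at a distance of 136 bp, still within 1 kb of the start. The nearest coding start to this summit is not that of Cpr73D but that of Ogdh, which encodes a subunit of oxoglutarate dehydrogenase, 422 bp away. When each summit counted for the nearest coding start alone, Cpr73D dropped out. The second summit lies 1571 bp from a Cpr73D start, in an intron, with a signal of 91.6, 43.1 in replicate 1 and 46.6 in replicate 4, and Cpr73D has the nearest coding start to it.

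Cpr47Ec (FBgn0033600) and Cpr47Ed (FBgn0033601) are neighbours on 2R in a cluster of 7 CPR genes. The Cpr47Ec summit, at 11259106, had a pooled signal of 105.5, 51.3 in replicate 1 and 56.0 in replicate 4. It falls on the last base of the gene, 870 bp past the start, and both replicates placed their summits 7 to 9 bp beyond the gene's end. The Cpr47Ed summit, 902 bp before the start, was the weakest of the 5 with a pooled signal of 82.2. The replicates were unequal there: it ranked 10779 in replicate 1 with 27.9, and 5099 in replicate 4 with 52.7, so it was not among the 7055 strongest entries of replicate 1. Those of replicate 1 held 4 of the 122 members, against 23.8% of all protein-coding genes, and those of replicate 4 held all 5, against 19.5%. By arm, 3 of 47 members on 3L and 2 of 27 on 2R were called, and none of the 7 on 2L, 33 on 3R or 8 on X, where 18.7% to 22.2% of all coding genes on each of these arms were.

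Cpr, the reductase, had its summit 96 bp before 1 of its 4 annotated starts, in an intron counted from the first. The signal was 95.9 in the pooled list, 50.5 in replicate 1 and 37.8 in replicate 4, and replicate 4 ranked it 7660, outside its 7055 strongest. It is the only gene of the 6 called names whose summit lies nearer than 500 bp. None of the 122 cuticle members had one within 500 bp, where 17.1% of all protein-coding genes did, and the 5 called lay 527 to 902 bp from theirs.

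**Figure D1:**
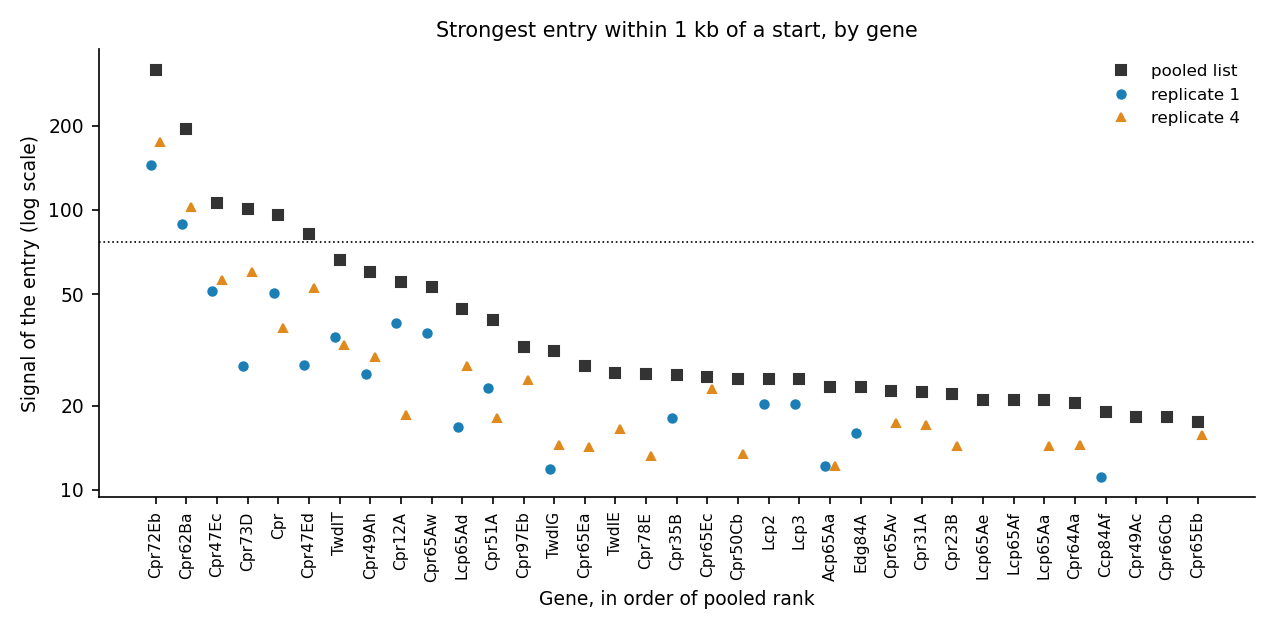
Signal (log scale) of the strongest pooled entry within 1 kb of a start for the 35 named genes that have one, Cpr included, in order of pooled rank, with the nearest entry within 100 bp in replicate 1 (circles) and replicate 4 (triangles). The dotted line is the lowest signal of the optimal list, 76.7; 6 genes lie above it and 29 below, and from Cpr97Eb on most genes have a point from 1 replicate or from neither.

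Weaker entries were more common than optimal ones. The pooled list had an entry below the optimal threshold within 1 kb of 29 members, 23.8%, compared with 16.9% of all protein-coding genes. With the 5 called members, 34 of 122 had any pooled entry, 27.9%, compared with 37.2% of all protein-coding genes. No pooled entry lay within 1 kb of 88 members, 72.1%, compared with 62.8%. Among genes with any entry, the optimal share was thus 14.7% for the members and 54.5% over all coding genes. The strongest entry per gene had a median signal of 25.5 over the 34 members, and 88.2 over the 5187 coding genes with an entry. Over the 1283 coding genes with an entry, 1 start and a body under 2 kb, a size most members have, it was 56.45.

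These weaker entries were often listed in 1 replicate alone. Of 29, 7 had an entry within 100 bp in both replicates, 6 in replicate 1 alone, 12 in replicate 4 alone and 4 in neither. Their pooled signals ran from 17.5 to 66.2 with a median of 24.8, near the list's floor of 17.5, and 23 ranked below 15000. They lay at 27 distinct positions, since Lcp2 and Lcp3 share a summit, as do Lcp65Ae and Lcp65Af. The summit was upstream of the start at 23 of 29 members and within 500 bp of it at 18.

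TwdlT had the strongest of them and the strongest entry of any Tweedle gene. Its pooled signal was 66.2, with 35.1 in replicate 1 and 32.8 in replicate 4, and the summit lies 436 bp before the start, in an intron of the neuropeptide receptor gene RYa-R. Cpr49Ah followed with 59.8, 25.9 and 29.7 in the same order, 968 bp before its start. Cpr12A had 55.3, with 39.5 in replicate 1 and 18.6 in replicate 4, 177 bp before its start. All 3 were found in both replicates.

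At Cpr65Aw the entry of 53.1 had a counterpart of 36.2 in replicate 1 and none in replicate 4. Lcp65Ad, a larval cuticle protein gene, had its summit 5 bp before the start, closer than any other member, with a pooled signal of 44.1, 16.8 in replicate 1 and 27.7 in replicate 4. Cpr51A had 40.4 at 389 bp past its start, with 23.1 in replicate 1 and 18.0 in replicate 4. Of the next 4, Cpr97Eb (32.4), Cpr65Ea (27.6) and TwdlE (26.1) had an entry in replicate 4 alone, and TwdlG (31.4) had 11.8 in replicate 1 and 14.4 in replicate 4. Edg84A, a pupal cuticle gene known as a target of the nuclear receptor Ftz-F1, had an entry of 23.3 and a counterpart of 16.0 in replicate 1 alone.

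Several members have their nearest optimal summit a little farther out, and some of these summits lie nearer to a start of another gene. Cpr51A holds an optimal summit in its body 1394 bp past its start, with a pooled signal of 184.5, 70.4 in replicate 1 and 44.4 in replicate 4. That summit is 213 bp before CG30197, whose start lies within the body of Cpr51A. Another, of 306.4, lies 3078 bp before Cpr51A. Inside their bodies, 4 members (Cpr47Ec, Cpr51A, Cpr62Ba and Cpr73D) had an optimal summit, 3.28%, compared with 14.1% of all protein-coding genes. A longer body has more room for a summit, and the median body is 954.5 bp in members and 2166 bp in all. Cpr51A, Cpr62Ba and Cpr73D are long for members, with 2653, 7655 and 18590 bp. The share for all coding genes of like length was not computed.

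Cpr12A has a row of 3 optimal summits upstream, at 2189, 2971 and 3992 bp before its start, and its own start is the nearest coding start to each. Their pooled signals were 178.3, 80.8 and 80.8. The first had 86.5 in replicate 1 and 91.3 in replicate 4, the second 29.9 and 53.9, and the third 48.4 and 34.1. The first alone was among the 7055 strongest entries of both replicates. Pcp, the pupal cuticle protein gene, lies in an intron of Gart and has an optimal summit 2478 bp past its start, which is 262 bp before a start of Gart, a purine synthesis gene. At Cpr31A a summit of 834.7 lies 3222 bp away at Pen, an importin gene.

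Measured without a window, the members as a set stood far from binding. The median distance from a start to the nearest optimal summit was 20576.5 bp over the 122, with quartiles of 7922.5 and 39220.25 bp, and 8275 bp over all protein-coding genes. It was 10752 bp over coding genes with 1 start and a body under 2 kb. With the strongest entries of replicate 1 the median was 17633.5 bp over the 122 against 6740 bp over all coding genes. With those of replicate 4 it was 21299 bp against 8577 bp. Within 5 kb of a start 15.6% of members had an optimal summit and 38.3% of coding genes did, and within 20 kb 48.4% and 76.0%. The difference in shares was thus present at each distance counted, in steps from 500 bp to 20 kb.

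The families differed among themselves in distance. The 4 Pcp and Edg genes had a median of 6893.5 bp, below the 8275 bp of all protein-coding genes, and the 70 named CPR genes 13852 bp. The 7 Ccp84A genes had 17996 bp, the 25 Tweedle genes 26691 bp, and the 16 Lcp and Acp65A genes 35874.5 bp. The nearest Lcp or Acp65A gene was 13222 bp from an optimal summit. Genes of a cluster share their nearest summits, so these medians rest on few places.

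**Figure D2:**
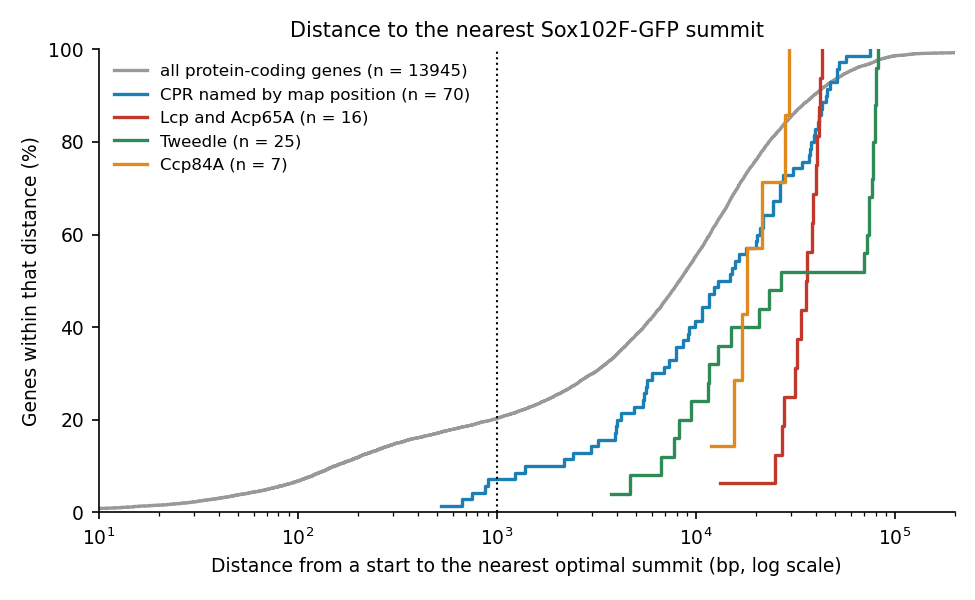
Cumulative share of genes (percent) by distance from a start to the nearest optimal summit (bp, log scale) for 4 cuticle families and all protein-coding genes, with the 1 kb window as a dotted line. The curves of these 4 families lie to the right of the grey curve up to 20 kb, and the Tweedle curve steps at 70.0 kb, where the 12 genes of 1 cluster begin. Pcp and Edg genes are not drawn.

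Most members sit in tandem clusters. Joining members within 20 kb of each other gave 15 clusters of at least 3, with 88 members on 243.2 kb and 16 other coding genes among them. These clusters held 4 optimal summits, 16.4 per Mb, where all arms together had 52.7 per Mb. The strongest entries of replicate 1 gave 3 summits and those of replicate 4 gave 4. Per Mb, weaker pooled entries were not sparse there: 49 of them made 201.5 per Mb, beside 171.4 per Mb over all arms. The clusters are dense in genes, with 361.9 members per Mb, where all arms have 104.2 coding genes per Mb. Set against these gene densities, weaker entries at any position were thus fewer in the clusters than over all arms. At starts the order was the other way. Within 1 kb, 23.8% of the 122 members had a weaker entry, and 16.9% of all protein-coding genes did. In 12 clusters there was no optimal summit, and in 5 of these no pooled entry at all.

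The 4 optimal summits fell in 3 clusters, already named: 2 in Cpr47Ea to Cpr47Eg, 1 in Cpr62Ba to Cpr62Bc and 1 in Cpr72Ea to Cpr72Ec. Within clusters 4 of 88 members were called, and outside them 1 of 34, Cpr73D. Any pooled entry was found at 22 of the 88 and 12 of the 34. All protein-coding genes had an optimal summit in 20.3% of cases and a pooled entry in 37.2%, and the inside and outside of clusters were not compared by a test.

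The cluster with the most members runs from Lcp65Ag3 to Cpr65Az on 3L (6130386 to 6161589) and holds 18 members on 31.2 kb, among them most of the larval cuticle protein genes and Acp65Aa, an adult one. It had no optimal summit and 11 weaker entries, the strongest of them the 53.1 at Cpr65Aw. At 7 of its members there was a weaker entry within 1 kb, and at 11 there was none. The nearest optimal summits outside were 35555 bp to the left, at CG10467, and 23550 bp to the right, at CG43293. The replicates' own strongest entries had no summit in it either.

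The Tweedle cluster from TwdlM to TwdlD on 3R (26619118 to 26641054) was emptier. Its 12 members on 21.9 kb had no pooled entry, none in replicate 1 and a single weak one in replicate 4. The nearest optimal summit was 69983 bp to the left, in scrib, an epithelial polarity gene, and 73311 bp to the right, at amon, a prohormone convertase gene with a signal of 478.5. The starts of its members were 70.0 to 82.5 kb from an optimal summit, a distance that 3.5% of all protein-coding genes reach. The 13 Tweedle genes elsewhere were less remote, with TwdlF the closest at 3770 bp.

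**Figure D3:**
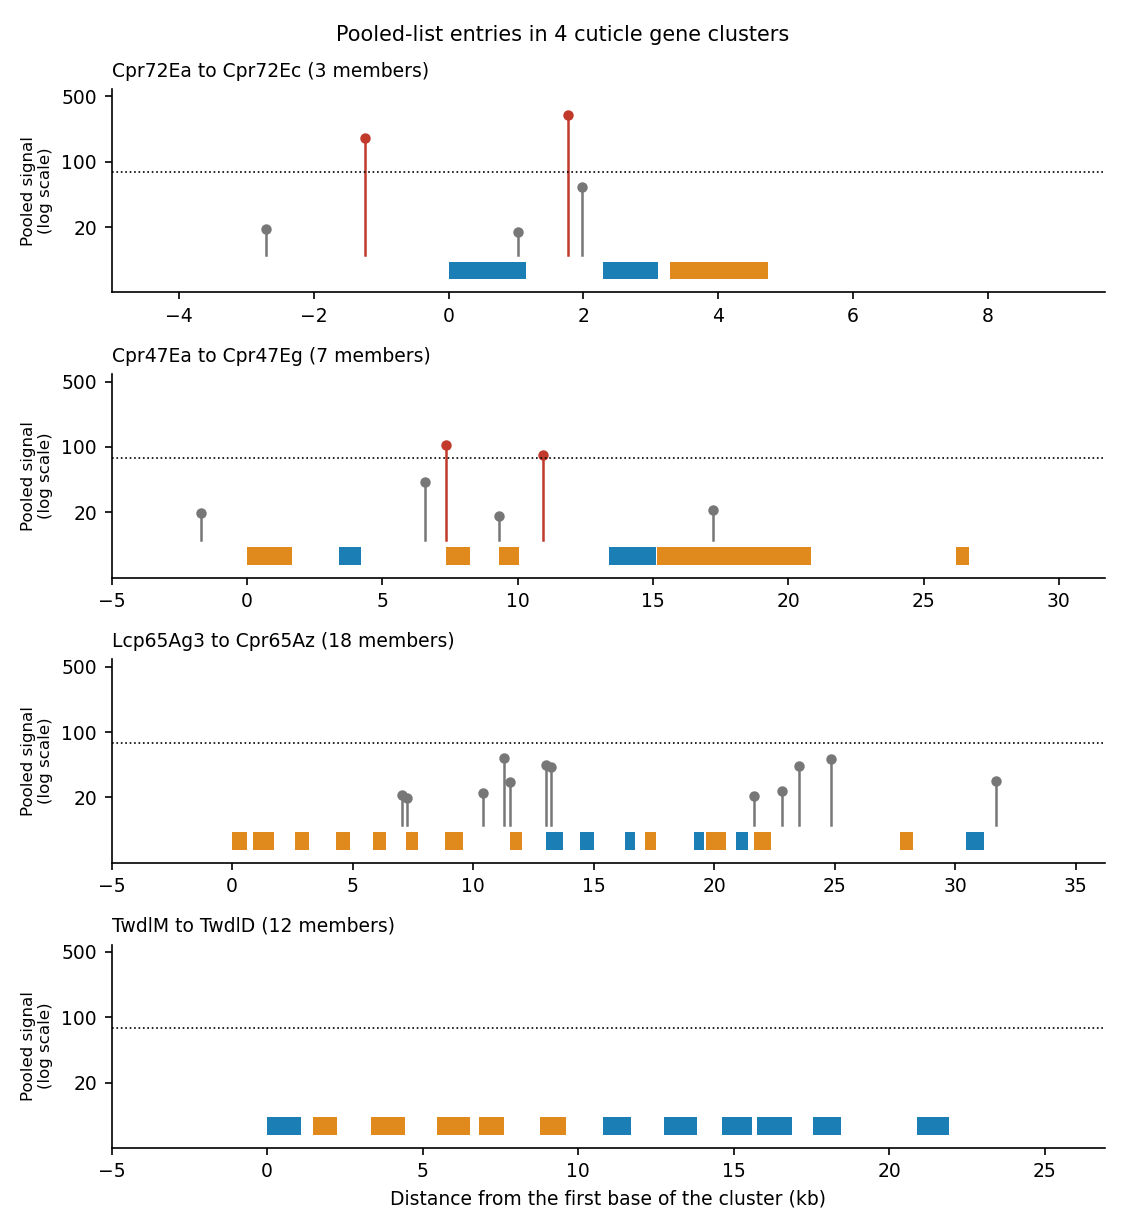
Pooled signal (log scale) of entries in and up to 5 kb around 4 cuticle gene clusters, by distance from the cluster's first base in kb. Red stems are optimal summits and grey stems weaker entries, the dotted line is the optimal threshold of 76.7, and bars are members on the plus (blue) and minus (orange) strand; Cpr72E and Cpr47E hold red stems, Lcp65Ag3 to Cpr65Az holds grey ones alone, and TwdlM to TwdlD holds none.

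Other clusters lay between these. Edg84A to Ccp84Aa (8 members, 20.5 kb) lies in the Antennapedia complex, with its nearest optimal summits at lab, 9709 bp away, and bcd, 54761 bp away. It held 4 weaker entries, the strongest of 61.0. Cpr49Aa to Cpr49Ah (8 members, 38.5 kb) held 14, the most of any cluster. Cpr65Ea to Cpr65Ec held 7 on 7.8 kb, and each of its 3 members had a weaker entry. Lcp1 to Lcp4, with 4 of the first larval cuticle protein genes described in the fly, held 2, and lies 24127 bp from a summit of 705.6 at Mal-A5, a maltase gene. Cpr64Aa to Cpr64Ad and TwdlF to TwdlV held 1 each.

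Without any pooled entry, besides TwdlM to TwdlD, were Cpr67Fa1 to Cpr67Fb, Cpr76Ba to Cpr76Bd, Cpr78Ca to Cpr78Cc and TwdlX to Twdlalpha. Strong binding can stand right beside such a cluster. The summit nearest to Cpr78Ca to Cpr78Cc is 3402 bp beyond its end at CG11309, with a pooled signal of 1487.2, rank 24, and with 648.9 in replicate 1 and 833.9 in replicate 4. On both sides of TwdlX to Twdlalpha optimal summits lay 7803 and 6752 bp away. Coding genes that are no members but lie within 20 kb of one had an optimal summit in 73 of 401 cases, 18.2%, beside the 4.1% of the members and the 20.3% of all.

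Members differ from the average gene in size, and over all genes the share with a summit differed by number of starts. Members are short, with a median body of 954.5 bp compared with 2166 bp, and 111 of 122 have a single start. Of all protein-coding genes with 1 start and a body under 2 kb, 8.99% had an optimal summit, and of the 99 such members 3 did, 3.03%. Of all genes with 2 or more starts 39.3% had one, and 2 of the 11 such members. The promoters of members had a median G+C content of 44.0%, against 38.0%, and no share by G+C was computed. The part that gene size and number of starts have in the members' count was not tested.

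The promoters of cuticle genes carried a TATA box more often than those of other genes. The word TATAAA stood on the gene's strand between 40 and 11 bases before the start in 71 of 122 members, 58.2%, where 8.06% of all protein-coding genes had it and 13.1% of those with 1 start and a short body. Its first base lay a median of 28 bases before the start. All 4 Pcp and Edg genes had it, 13 of 16 Lcp and Acp65A genes, 5 of 7 Ccp84A genes, 15 of 25 Tweedle genes and 34 of 70 named CPR genes. The DRE word TATCGATA, found at many housekeeping promoters in the fly, was in 1 member's promoter, 0.82%, and in 9.36% of all.

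Promoters from 100 bases before the start to 50 bases from it onward are shown on the gene's strand of dm6, from the RefSeq release 6 genome, with TATAAA and the Ftz-F1 word (CAAGGTCA or its reverse TGACCTTG) in capitals. Edg84A, at chr3R:6684345-6684494, has both and is the single member with the Ftz-F1 word. Cpr72Eb, at chr3L:16364799-16364948, is the member with the strongest summit. TwdlD, at chr3R:26639925-26640074, closes the Tweedle cluster with no pooled entry. Lcp65Ab1, at chr3L:6149448-6149597, and Lcp65Ab2, at chr3L:6146574-6146723, are near-identical copies. All 5 genes lie on the plus strand.
Edg84A: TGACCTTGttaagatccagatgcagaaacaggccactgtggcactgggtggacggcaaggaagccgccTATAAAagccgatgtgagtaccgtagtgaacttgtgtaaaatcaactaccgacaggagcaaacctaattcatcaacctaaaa
Cpr72Eb: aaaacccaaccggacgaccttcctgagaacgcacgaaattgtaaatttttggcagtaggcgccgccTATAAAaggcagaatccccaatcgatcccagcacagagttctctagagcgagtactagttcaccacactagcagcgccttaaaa
TwdlD: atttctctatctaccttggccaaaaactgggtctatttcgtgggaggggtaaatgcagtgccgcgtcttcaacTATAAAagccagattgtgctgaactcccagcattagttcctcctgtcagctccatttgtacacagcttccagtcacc
Lcp65Ab1: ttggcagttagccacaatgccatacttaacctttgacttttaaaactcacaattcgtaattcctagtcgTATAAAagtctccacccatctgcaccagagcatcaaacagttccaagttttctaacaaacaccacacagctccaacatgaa
Lcp65Ab2: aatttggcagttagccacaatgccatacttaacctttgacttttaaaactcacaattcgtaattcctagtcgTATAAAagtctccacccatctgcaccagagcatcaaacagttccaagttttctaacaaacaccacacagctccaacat

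Members with the TATA word had an optimal summit in 2 of 71 cases, 2.82%, and members without it in 3 of 51, 5.88%. Over all protein-coding genes the shares were 10.2% with the word and 21.2% without. Among all genes with 1 start and a body under 2 kb they were 5.55% and 9.5%, and among the members of that kind 2 of 63, 3.17%, and 1 of 36, 2.78%. The share was thus lower with the word over all genes but not among the short members, where it rests on 3 genes, and the part of the word in the members' count was not tested. The SOX words had like shares in members' promoters (250 bases before to 50 after the start) and in all: AACAAT was in 39 of 122 and in 32.1% of all, and ACAAAG in 15.6% and 18.3%. The GAGA word GAGAG was in 30.3% and 29.7%, on either strand as for the other words.

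Where the sequence around a start is shared by copies, reads from it cannot be placed on 1 of them. Lcp65Ab1 and Lcp65Ab2 encode identical proteins and their promoters are 97.0% identical, and the same holds for Cpr65Ax1 and Cpr65Ax2, with 97.0%. Lcp65Ag1 and Lcp65Ag2 also encode identical proteins. Cpr67Fa1 and Cpr67Fa2 are 97.8% identical in protein, TwdlB and TwdlL 96.9%, Ccp84Ab and Ccp84Aa 91.9%, Lcp3 and Lcp4 87.5%, and the coding sequences of Lcp1 and Lcp2 are 88.2% identical. The promoters of these last pairs are less alike, with 64.1% identity for Cpr67Fa1 and Cpr67Fa2 and 45.7% for Lcp3 and Lcp4. Around the starts of Lcp65Ab1 26.7% of 32-base words occur once in the genome, and 35.4% around Cpr65Ax1. Around Ccp84Aa it is 79.6%, around TwdlL 77.9%, around Cpr67Fa1 95.8%, around Lcp1 94.8% and around Lcp3 99.7%, so reads could mostly be placed at these.

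Such members were few among all, but they were not spread evenly. Of all 123, 98 had at least 99% unique words within 1 kb of their starts and 15 had under 90%. All 15 lie in the clusters Lcp65Ag3 to Cpr65Az, TwdlM to TwdlD and Edg84A to Ccp84Aa, none of which held an optimal summit. The part that shared sequence has in the lack of entries in these clusters was not tested. Those 15 had no optimal summit and 1 weaker entry, at Lcp65Aa. Over the other 107 cuticle members the share with an optimal summit was 4.67% and with any pooled entry 30.8%. How reads with several matches were treated is not stated in the sources used.

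Genes that act on the cuticle without being its structural proteins gave other shares. Of 25 genes of chitin synthesis, turnover and assembly, 6 had an optimal summit within 1 kb, 24.0%, led by Cht7 (a chitinase, signal 339.5), mmy (which makes the sugar donor for chitin, 169.5) and knk (which protects and orders chitin, 119.4). Of 17 apical matrix genes 5 did, 29.4%, led by tyn (368.8), qsm (204.0) and snsl (98.4). At the snsl summit replicate 4 had an entry of 61.7 within 100 bp and replicate 1 had none. With the strongest entries of replicate 1 the share of apical matrix genes was 23.5%. Of 14 tanning and pigment genes 2 had an optimal summit, 14.3%: speck (261.5) and ple (76.8), the tyrosine hydroxylase gene. These 3 lists are small, and none stands far from the 20.3% of all coding genes. Their genes are also longer, with median bodies of 4288, 9016 and 5170 bp in the order given, where all coding genes have 2166 bp. In the same order, 11 of 25, 8 of 17 and 4 of 14 have 2 or more starts. The shares were not matched for size.

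Regulators of the timing of cuticle genes stood at the other end. Of 15, 14 had an optimal summit, 93.3%, and the strongest 7055 entries of each replicate gave 14 as well. Eip75B, an ecdysone-induced nuclear receptor, had 633.7, Hr3 had 479.8 at a summit nearer to a start of Hdc, and vri had 254.0. ftz-f1, whose product activates Edg84A, had 146.5, with 54.8 in replicate 1 and 95.8 in replicate 4. Hr38 was the 1 without. These genes were known from earlier results on the same data to be bound, so they are no independent observation. They are also large, with a median body of 41689 bp and a median of 3 starts, and 13 of 15 have more than 1 start. Of all protein-coding genes with 2 or more starts, 39.3% had an optimal summit.

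**Figure D4:**
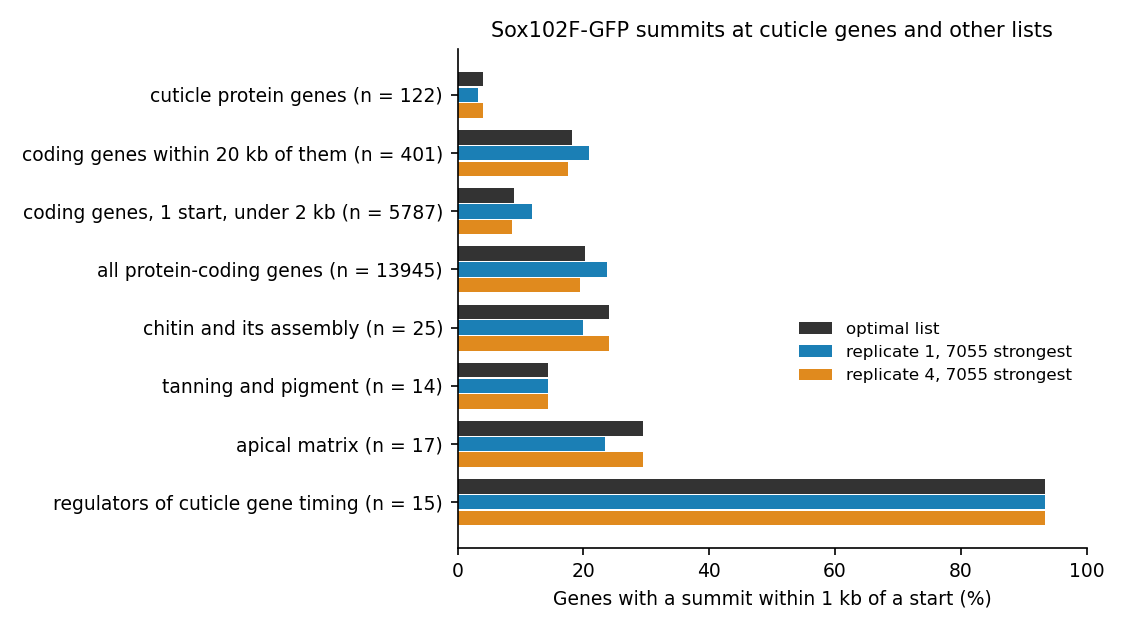
Share of genes (percent) with a summit within 1 kb of a start, for the optimal list and for the 7055 strongest entries of each replicate. Cuticle protein genes (Cpr left out) stand at 4.1%, 3.28% and 4.1%. In the optimal list, coding genes with 1 start and a body under 2 kb stand at 8.99%. Neighbours of the cuticle genes stand there at 18.2% and all protein-coding genes at 20.3%. The timing regulators, known from earlier results on the same data to be bound, stand at 93.3% in all 3.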

How the data were processed

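ChIP-seq peak lists from 2 replicates of 1 group were used. Per the deposited text records, alignments and a control gave the replicate and pooled lists, and these 3 gave the optimal list. The names of the aligner and caller and the reproducibility threshold are not stated in the sources used. Signal values are the authors' own, as deposited. The deposited −log10 q-value reaches a ceiling of 3.92 at 58.9% of optimal peaks and was not used. The authors' summit offset in bp, another deposited value, gave each summit. No read counts were used, so depth is unknown. The dm3 lists were not used.

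Genes were those of Ensembl release 115 (BDGP 6.54, dm6 coordinates), with coordinates counted from 1. Replicate values are those of the entry nearest within 100 bp. Promoter and summit sequences came from the RefSeq release 6 genome. Python 3.11.15, numpy 2.4.6, pandas 2.3.3, Biopython 1.88 and matplotlib 3.10.9 were used, and the calling functions were tested on simulated data. The genes named are all members with an optimal summit at a start or in the body, the 10 strongest weaker entries, the ends of each cluster and its strongest summit, near-identical copies, and the 3 strongest of each other list. Others, such as Cpr12A's upstream summits, Pcp, Cpr31A, Edg84A and ftz-f1, were chosen after their values were seen. The members and lists were chosen with earlier results of these data known. No test was run.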

Additional observations from a re-analysis of the deposited data

How the results depend on the processing

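The count of members with an optimal summit within 1 kb, 6 with Cpr, was 1 within 500 bp (Cpr itself), 2 with the 3527 strongest optimal entries and 3 among members with 1 start and a body under 2 kb, a subset chosen after seeing the data. Of all protein-coding genes 20.3% had one as reported, 17.1% within 500 bp and 13.0% with the 3527 strongest entries. Of all those with 1 start and a body under 2 kb 8.99% did. With either replicate left out the count of members ranged from 5 to 5. The share of all protein-coding genes was then 23.8% in replicate 1 and 19.5% in replicate 4. Restricting to members with at least 90% unique words, also chosen after seeing the data, left 6. The count with any pooled entry, 35, was 23 within 500 bp and ranged from 26 to 37 with a replicate left out. Of all protein-coding genes 37.2% had a pooled entry, and 31.7% within 500 bp. In the lists of replicates 1 and 4 the share of all was 43.0% and 38.2%. Clusters held 4 optimal summits, 2 with the 3527 strongest, and 3 to 4 with a replicate left out. The 2 made 8.22 per Mb, where the 3527 strongest entries made 26.3 per Mb over all arms. The median distance, 20378 bp with Cpr, ranged from 17576 to 21534 bp. The counts at 500 bp, with the 3527 strongest entries and among short members come from a narrower window, a shorter list and fewer members by construction; for the lists of single replicates the cause was not tested. No paired analysis was possible because there is 1 group and no test. Depth is unknown, so a gene with no entry is one where no binding was listed, not one shown to be free of it.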
